A study of Saccharomyces cerevisiae with 16 samples.

Results

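The comparison set 2 H3K4me3 libraries of yeast carrying the integrated sequence HPRT1R against 2 libraries of yeast carrying the integrated sequence HPRT1. The groups were taken from the sample titles and hold 4 of the 16 samples of the series. Of the 16, 8 were H3K4me3 libraries, and the IgG samples were not analysed here. All 4 libraries came from BY4741, a haploid laboratory strain of Saccharomyces cerevisiae, with synHPRT1 or synHPRT1R integrated on chromosome XI. Both groups grew in the rich medium YPD at 30 °C, from an optical density of 0.1 for 6 hours to about 0.6, and each library was made with 0.5 µg of antibody. The titles name the assay ChIP, while the protocol describes CUT&RUN, in which an antibody guides a nuclease that cuts out the chromatin it binds. Nothing in the labels says that the replicates were separate cultures or how many clones stand behind a strain, so the p-values cover only the spread among these libraries, which may be technical.

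H3K4me3, trimethylation of lysine 4 of histone H3, is written in yeast by the enzyme Set1 within the COMPASS complex. It collects on the nucleosomes at the 5′ ends of genes that RNA polymerase II transcribes. HPRT1 is a human gene whose enzyme salvages purine bases, and its locus did not evolve in a yeast nucleus. HPRT1R holds the same bases in reverse order without complementing them, so that base composition is kept while coding sequence and binding motifs are lost. Setting the 2 sequences side by side therefore shows the mark over foreign DNA of like composition but different words.

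Each library came as a list of called peaks on the native chromosomes and on a contig for the synthetic DNA. The first 100 kb of the contig is called the insert below, since the border between insert and vector is not given. A peak's strength is given as its percentile, the rank of its fold over the caller's expectation among the native peaks of the same list. Folds are the authors' own values and were used only within a list. Percentiles come from lists of different lengths, so a gene's percentiles in the 2 groups are set side by side and show no change in level. Peak lists give no read totals. The caller's expected pileup was solved from each peak's fold and p-value. Its 10th percentile over the native peaks of a list was 76.2 and 76.5 reads with HPRT1 and 78.0 and 83.3 reads with HPRT1R. The median over insert peaks was 1.04 to 1.08 times that 10th percentile in all 4, so the 2 sides are unlike statistics. Where a library has no peak its depth is unknown. The strain was checked on the reading frames that BY4741 lacks in whole or in part: LEU2, MET17 and URA3 held 0 peaks in all 4 libraries. HIS3, of which BY4741 lacks only a part, lay under a peak over 100% of its frame in all 4. That includes the missing part, so for HIS3 the called peaks do not bear out the label, and an interval does not show whether reads lay within that part.

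The inserts carried H3K4me3 peaks along nearly their whole length in both orientations, and in similar number. HPRT1 held 50 peaks in replicate 1 and 49 in replicate 2, and HPRT1R held 52 and 50. The groups touched at 50, and the means differed by 1.5 peaks (p = 0.667, exact two-sided permutation test of 2 against 2 libraries, for which the smallest possible p is 0.333). No comparison of these 4 libraries can therefore pass a threshold of 0.05, and group differences are read below against the spread of the replicates alone.

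Peaks covered 31.9% and 31.7% of the HPRT1 insert and 30.7% and 31.1% of the HPRT1R insert. The groups did not overlap, and HPRT1R lay lower, with a difference of −0.861 percentage points (means 31.8 ± 0.133 against 30.9 ± 0.301, SD, n = 2 each; p = 0.333, exact permutation test). With equal numbers of peaks per list the difference was −2.85 points. Over the first 98 kb it was 0.612 points in the other direction, so that the last stretch of the HPRT1 contig set its sign.

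Median peak width on the insert was 484 and 553 bp in the HPRT1 libraries and 489 and 506 bp in the HPRT1R libraries. Both HPRT1R values lay between the HPRT1 replicates (difference of −21.0 bp, p = 1, exact permutation test). Summits were a median of 1452 and 1611 bp apart on HPRT1 and 1491 and 1530 bp apart on HPRT1R, again within the HPRT1 spread (difference of −21.0 bp, p = 1, exact permutation test). Peaks of 1000 bp or more numbered 10 and 8 on HPRT1 and 10 and 9 on HPRT1R. The widest peak did set the groups apart: it measured 2415 and 2349 bp on HPRT1 and 1568 and 1721 bp on HPRT1R.

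**Figure D1:**
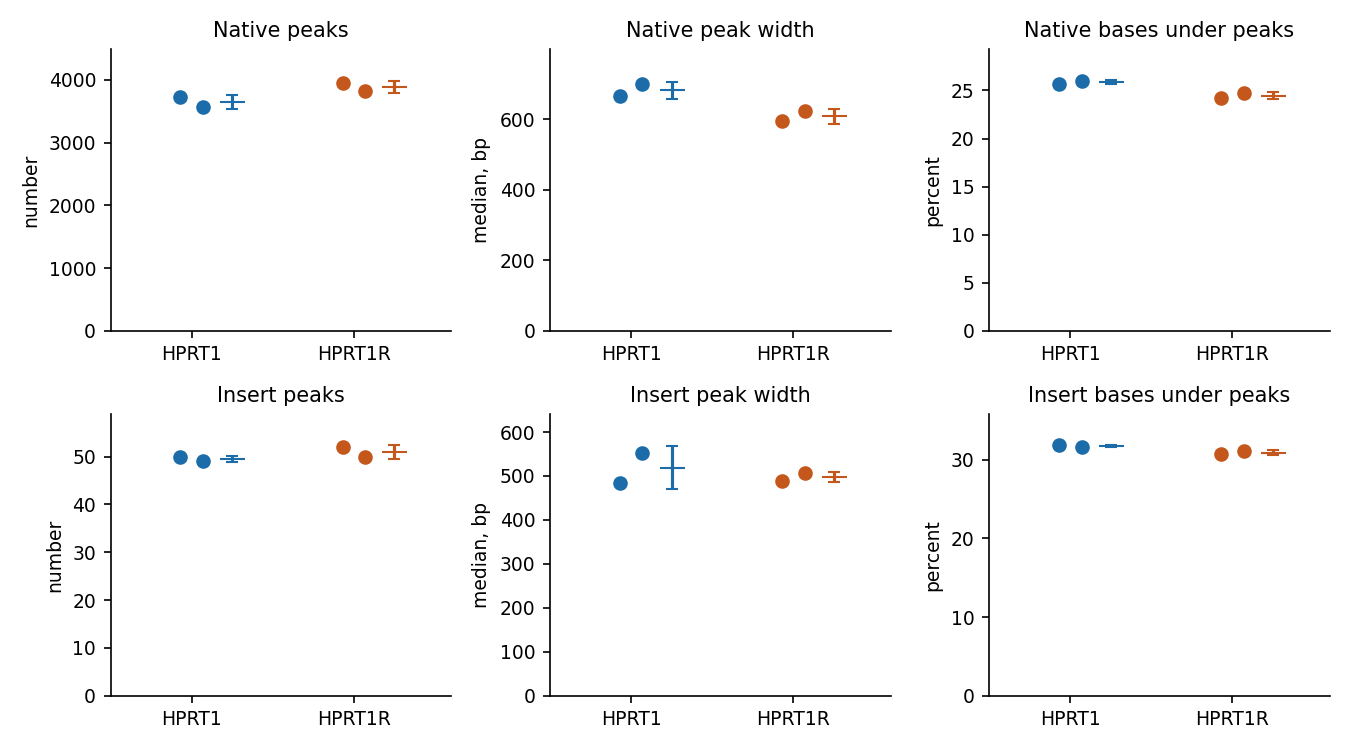
Values per library for the integrated strains: number of peaks, median peak width (bp) and bases under peaks (%) on the native chromosomes (top) and on the first 100 kb of the contig (bottom). Points are the 2 libraries of a group, the horizontal mark is their mean and the bar its SD. On the native chromosomes the HPRT1R libraries have more and narrower peaks, while on the insert the groups meet at 50 peaks and median widths run from 484 to 553 bp.

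Insert peaks were weaker than the typical native peak in every library. Their median percentile was 19.7 and 18.4 on HPRT1 and 29.7 and 21.5 on HPRT1R. The groups did not overlap, and the difference of 6.57 percentile points came with a spread of 5.85 within HPRT1R (SD, n = 2; p = 0.333, exact permutation test). Without HPRT1R replicate 1 the difference was 2.43 points, and without HPRT1R replicate 2 it was 10.7. Insert peaks stronger than the native median numbered 7 and 6 on HPRT1 and 13 and 9 on HPRT1R. The scale itself moved with the group: the median native fold was 2.36 and 2.26 in the HPRT1 libraries and 2.16 and 2.21 in the HPRT1R libraries, while the median insert fold, 1.83 and 1.77 against 1.87 and 1.77, overlapped. The part of that shift in the percentile difference was not tested.

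Along the insert the mark was unevenly spread, and each orientation had its own pattern. In stretches of 10 kb, HPRT1R exceeded HPRT1 in mean coverage in every other stretch, beginning with the first, and HPRT1 exceeded HPRT1R in those between. The first 10 kb held 30.9% and 32.9% of bases under peaks on HPRT1 and 49.9% and 46.4% on HPRT1R. The last 10 kb held 46.1% and 47.3% on HPRT1 and 26.9% and 24.5% on HPRT1R. In the stretch from 50 to 60 kb the values were 32.8% and 32.4% on HPRT1 and 15.8% and 15.9% on HPRT1R. In these 3 stretches the gap between sequences was several times the gap between replicates.

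**Figure D2:**
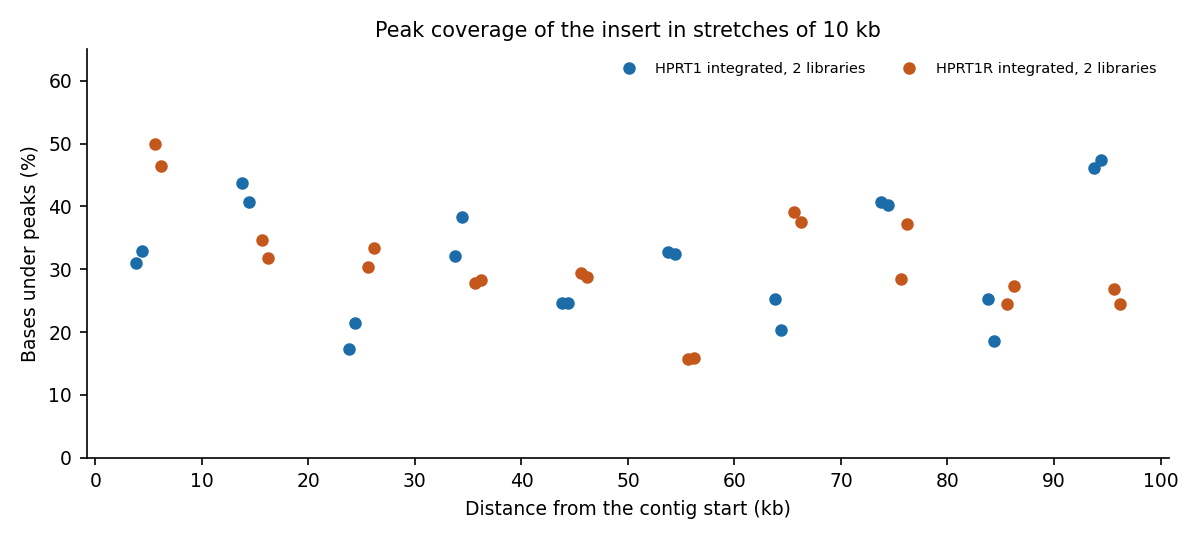
Bases under peaks (%) in stretches of 10 kb along the insert, by distance from the contig start (kb), with 1 point per library. In the first 10 kb both HPRT1R points (49.9% and 46.4%) lie above both HPRT1 points (30.9% and 32.9%), and in the last 10 kb both HPRT1 points (46.1% and 47.3%) lie above both HPRT1R points (26.9% and 24.5%).

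Both inserts had their longest peak-free stretch just past the middle. On HPRT1 it ran over 4947 and 4950 bp, from 50734 to 55680 and to 55683. On HPRT1R it ran over 6302 and 6263 bp, from 50446 to 56747 and from 50484 to 56746. The intervals thus shared most of their bases in contig coordinates, and 0% of the HPRT1 stretch lay under HPRT1R peaks found in both replicates. In mirrored coordinates (sum of 100.8 kb, below) 40.3% of it did. Of the HPRT1R stretch from 50484 to 56746, 21.0% lay under HPRT1 peaks at the same coordinates and 29.8% in mirrored coordinates. Another HPRT1 stretch without peaks, from 59959 to 63257, showed the opposite: 33.8% of it lay under HPRT1R peaks at the same coordinates and 0% in mirrored coordinates. Other long stretches were mixed. On HPRT1, 1 to 3904 had 65.7% at the same coordinates and 9.81% mirrored, and 20882 to 24130 had 33.2% and 65.2%.

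Peak positions were first compared at the same contig coordinates. Replicates of a sequence shared 28.0% and 26.7% of the insert as bases under peaks in both, 2.78 to 2.80 times the product of their coverages. An HPRT1R and an HPRT1 library shared 12.3% (mean of 4 pairs), or 1.25 times the product, with a range of 1.21 to 1.29. The pairs share libraries and carry no test.

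HPRT1R positions were then mirrored, each position being replaced by a fixed sum minus the position. If the sequence is reversed end to end, the sum equals its length. At a sum of 100 kb, the length used for the insert, the overlap was 9.15%, which was 0.932 times the product of coverages (0.904 to 0.956 over the pairs). At a sum 1 kb higher it was 13.7%, or 1.40 times. The sum was next moved in steps of 100 bp to 5 kb on either side of 100 kb, a choice made after seeing the data. The ratio rose to a narrow maximum of 1.69 at 100.8 kb, where 16.5% of the bases were under peaks of both sequences. All 4 pairs of integrated libraries had their maximum at that same step, at 1.66 to 1.71. Beyond 1 kb from it the mean curve reached at most 1.18, at 101.9 kb, and its median over all steps was 1.00.

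Other curves show how high such a ratio runs in these lists. The HPRT1 libraries mirrored onto each other reached 1.28, at 103.4 kb, and the HPRT1R libraries mirrored onto each other reached 1.49, at 95.2 kb. Without mirroring, sliding HPRT1R along HPRT1 gave at most 1.36, at a shift of 0.2 kb. The maximum of the mirrored pair lay above all of these, and below the 2.78 of replicates. Because the sum was picked for its overlap, the value is a description and has no test.

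**Figure D3:**
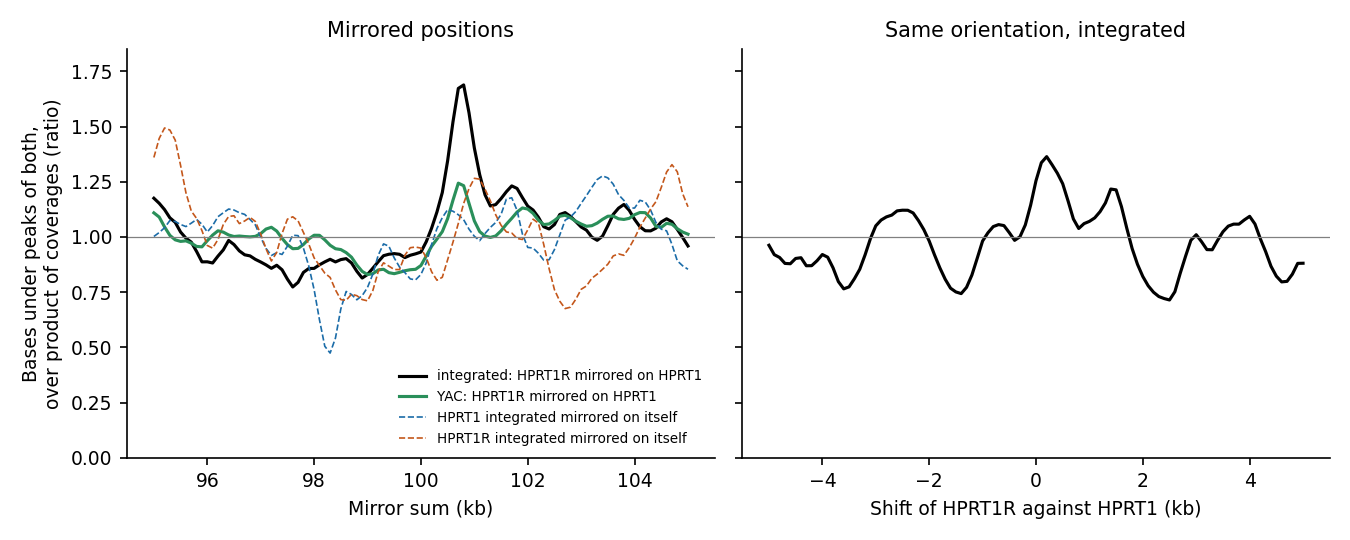
Bases under peaks of both sequences, divided by the product of the coverages (ratio), against the mirror sum in kb (left) or against the shift of HPRT1R along HPRT1 in kb without mirroring (right). The black curve, the mean of 4 pairs of integrated libraries, peaks at 1.69 at 100.8 kb, the mean curve of the YAC libraries at 1.24 at 100.7 kb, and the dashed curves mirror each sequence onto itself.

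The libraries of the same sequences on a yeast artificial chromosome (YAC), which took no part in picking the sum, gave a mixed picture. Their mean curve was highest at 100.7 kb, at 1.24, and beyond 1 kb from there it reached at most 1.13. The pairs with HPRT1R YAC replicate 2 peaked at 100.7 kb, at 1.46 and 1.33. The pairs with HPRT1R YAC replicate 1 peaked instead at 104.1 kb, at 1.18 and 1.16. YAC peaks cover more of the insert, which limits the ratio that they can reach, and those strains grew in another medium.

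Counts of whole peaks set the sum of 100.8 kb apart less clearly. In both replicates of a sequence, 44 regions were found on HPRT1 and 43 on HPRT1R. At 100.8 kb, 28 HPRT1 regions and 29 HPRT1R regions overlapped a region of the other sequence by at least 1 bp. Counts at least as high were met at 24 and at 10 of the sums tried, of which 9 and 7 lay within 500 bp of 100.8 kb. The highest count was 31 for HPRT1, at 103.2 kb, and 32 for HPRT1R, at 100.4 kb. At unmirrored coordinates the counts were 29 and 27. The median distance from a region's summit to the nearest summit of the other sequence was 535 bp for HPRT1 and 620.5 bp for HPRT1R at 100.8 kb. Unmirrored it was 513 and 517 bp, so the typical distance was no shorter at the picked sum. Pairs of summits within 200 bp of each other numbered 14 at 100.8 kb, against a median of 7 and a highest count of 15 at 99.3 kb. Between the YAC libraries such pairs numbered 11 at 100.8 kb, against a median of 7 and a highest count of 15 at 100.6 kb. A count of 11 was also reached more than 1 kb away.

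Strong regions faced each other near opposite ends of the contigs, though not in both cases summit to summit. On HPRT1 the region at 3905 to 5688 had percentiles of 68.7 and 68.1. On HPRT1R the strongest region of all, at 95850 to 96945, had percentiles of 71.3 and 87.2. Mirrored at 100.8 kb, their summits lay 67.5 bp apart. That sum was picked for overlap in these same peaks, so close summits here and below are descriptions of single pairs. At the other end, the strongest HPRT1 region, at 97571 to 99495 (percentiles of 84.3 and 78.9), faced 2 HPRT1R regions. They lay at 1306 to 1772 (14.2 and 19.3) and at 2265 to 3414 (65.6 and 68.7). The nearest summit, 126.5 bp away, was that of the weaker region, and that of the stronger one lay 1280 bp away.

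The second strongest HPRT1 region, at 55681 to 57022 (percentiles of 77.0 and 76.2), closes the long peak-free stretch of HPRT1. Its nearest mirrored counterpart, at 43789 to 44285 on HPRT1R (44.3 and 19.5), had its summit 91.5 bp away. On HPRT1R the region that closes the long peak-free stretch, at 56747 to 57316 (60.5 and 44.0), mirrored onto HPRT1 43392 to 44037 (33.5 and 27.7) with summits 39.0 bp apart. The HPRT1 region at 49897 to 50733 (50.4 and 55.8), next to the mirror axis, faced HPRT1R 50062 to 50483 (42.5 and 22.3) with summits 95.5 bp apart. Closer summits were also seen between weaker regions, such as HPRT1 69565 to 70613 and HPRT1R 30155 to 30834, at 11.5 bp.

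The other HPRT1 regions among the 10 strongest were 75825 to 78270, 95693 to 96602, 84319 to 84890, 45217 to 46138, 57457 to 57927 and 36964 to 38351. Their mean percentiles lay between 36.4 and 70.9. The widest of them, 75825 to 78270, overlapped mirrored HPRT1R regions, but the nearest summit was 1400 bp away. On HPRT1R the others were 16518 to 18013, 112 to 1059, 62474 to 64257, 47525 to 48200, 64645 to 65266, 93078 to 93811 and 76008 to 77582. Their mean percentiles lay between 52.7 and 65.6. A strong region did not always face a strong one: HPRT1R 16518 to 18013, with a mean percentile of 65.6, faced HPRT1 83540 to 84013, whose mean percentile was 1.72.

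Of the regions stronger than the native median, 1 of 7 on HPRT1 and 3 of 12 on HPRT1R had no mirrored counterpart. Of all regions, 16 of 44 and 14 of 43 had none. The strong HPRT1 region without a counterpart lay at 84319 to 84890 (percentiles of 70.5 and 39.9). Those on HPRT1R were 112 to 1059 (71.8 and 51.9), 47525 to 48200 (61.6 and 49.9) and 10508 to 11247 (50.1 and 53.7). The first of these mirrors onto 99742 to 100689, past the last HPRT1 peak. Regions with a counterpart were stronger and wider than those without: on HPRT1 the median percentile was 30.8 against 12.2 and the median width 827 against 345 bp, and on HPRT1R 32.4 against 19.98 and 680 against 436 bp. Wider regions touch others more readily, and their width was not separated from their strength here.

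**Figure D4:**
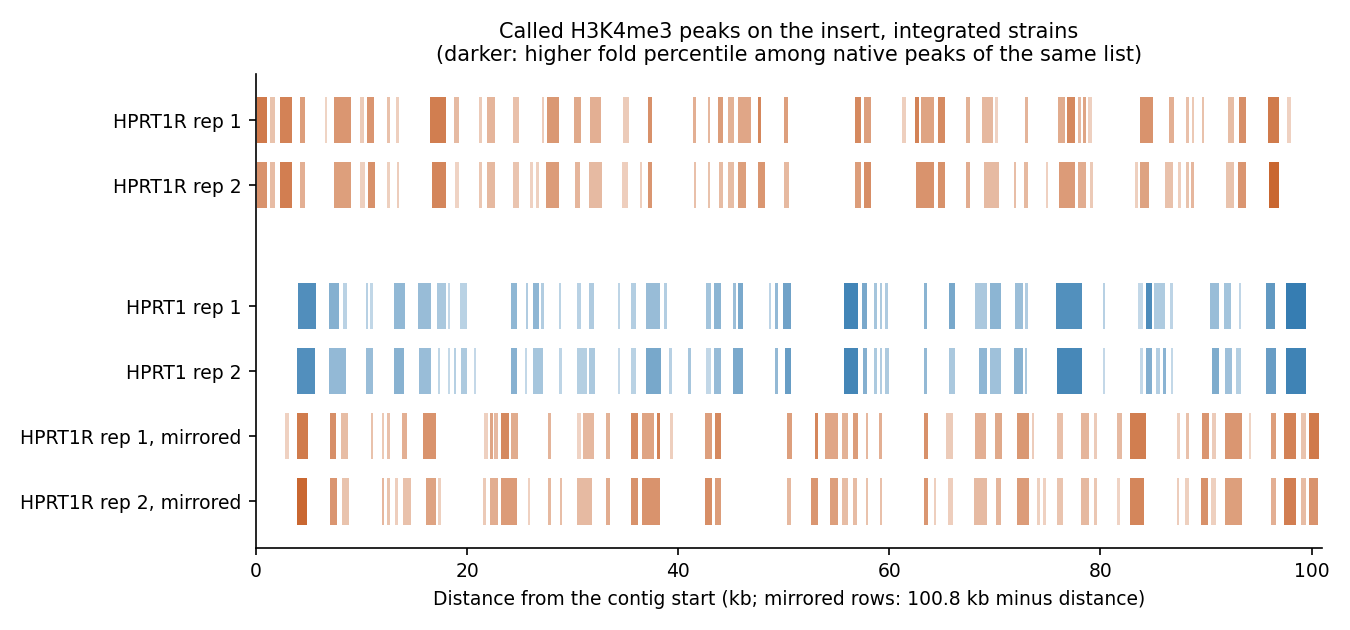
Called H3K4me3 peaks on the insert in the 4 integrated libraries, by distance from the contig start (kb), with a darker shade for a higher fold percentile. The 2 lowest rows show the HPRT1R peaks mirrored at a sum of 100.8 kb: the mirrored HPRT1R peak of 95850 to 96945 falls on the HPRT1 peak of 3905 to 5688.

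Most insert regions overlapped YAC peaks. Of the 44 HPRT1 regions, 41 met a region found in both HPRT1 YAC libraries. On HPRT1R, 39 of the 43 regions met a region found in both HPRT1R YAC libraries. YAC peaks covered 42.9% and 44.7% of the insert with HPRT1 and 45.3% and 42.1% with HPRT1R. Many regions would thus meet a YAC peak wherever they lay, and that share was not computed, so the counts do not show kept positions. Regions in 1 integrated replicate only numbered 6 on HPRT1 and 12 on HPRT1R, with median percentiles of 8.37 and 4.09.

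Away from the insert the strains share their parent genome, but the lists of native peaks differed in form. The HPRT1R libraries had more native peaks (3954 and 3813 against 3725 and 3573) that were narrower (median of 593 and 623 against 664 and 699 bp). They covered less of the 16 nuclear chromosomes (24.2% and 24.7% against 25.7% and 26.0%). Neighbouring native summits were a median of 2381 and 2499 bp apart with HPRT1R and 2620 and 2740 bp with HPRT1. None of these 4 measures overlapped between groups, and each gave p = 0.333, the smallest that the exact permutation test allows. With equal numbers of peaks per list, which fixes the totals, the native difference was 7 peaks in number, −48.8 bp in width and −102.75 bp in spacing. The difference in native coverage grew instead, from −1.39 to −2.00 percentage points. The part of depth or library preparation in these differences was not tested.

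Peak for peak, the difference in width was small. In 2541 native regions that held exactly 1 peak in each library, median widths were 667 and 672 bp with HPRT1 and 640 and 646 bp with HPRT1R. The peak was wider in both HPRT1 libraries than in either HPRT1R library in 702 regions (27.6% of those compared) and wider in both HPRT1R libraries in 405 (15.9%). The median ratio of widths was 0.983. Chromosome XI, which carries the insert, followed the genome in number, with 217 and 204 native peaks with HPRT1 and 232 and 219 with HPRT1R. Its median peak widths, 658 and 689 against 594 and 662 bp, overlapped between groups, unlike those of all native peaks.

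Native peaks lay at the same places. Of the native peaks of a library, 94.4% ± 1.40 (SD over 8 ordered pairs) met a peak of a library of the other sequence, against 95.4% ± 0.793 (SD over 4 ordered pairs) for the replicate. Merged over the 4 libraries there were 3787 native regions, of which 3136 (82.8%) held a peak in all 4. Regions with a peak in both HPRT1 libraries alone numbered 68 (1.8% of all regions), and those in both HPRT1R libraries alone 37 (0.977%). A reciprocal overlap of 50% was also tried, counting native peaks of replicate 1 matched in replicate 2 but in neither library of the other sequence. These numbered 195 of 3725 with HPRT1 and 311 of 3954 with HPRT1R, so that the larger count changed sides.

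Genes were called marked where a peak shared at least 1 bp with a window around the annotated start, reaching 200 bp upstream and 500 bp downstream. Of 6002 protein-coding genes, 79.7% and 79.4% were marked with HPRT1 and 77.2% and 77.8% with HPRT1R. All 4 libraries marked 4387 genes (73.1%), and none of them 1009. Genes marked in both HPRT1 libraries and neither HPRT1R library numbered 84 (1.4%), and the reverse held for 25 (0.417%). Taken library by library, the replicates differed on 253 genes within HPRT1 and 312 within HPRT1R. A library of each sequence differed on 289 to 436 genes over the 4 pairs, which overlaps the replicates.

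The imbalance of 84 against 25 turned when summits rather than overlaps were matched to genes. It stayed when 100 bp of the window had to be shared, at 80 against 23. At −log10 q of at least 5 it was 92 against 31. When a summit within 500 bp after the start was required, 61 genes (1.02%) were marked with HPRT1 alone and 215 (3.58%) with HPRT1R alone. Of those 215, 196 were marked in all 4 libraries by the overlap rule. By summits, 3 of the 215 repeated on the YAC, where 1.15% of all genes had that pattern, and 29 showed the opposite pattern, which 3.13% of all genes had. Leaving out any 1 of the 4 libraries raised the overlap counts, to 125 to 206 for HPRT1 and 46 to 80 for HPRT1R. The highest came without HPRT1R replicate 2 for HPRT1 and without HPRT1 replicate 1 for HPRT1R.

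On the YAC, 0 of the 84 and 0 of the 25 were marked in both libraries of the same sequence and neither of the other. Only 0.683% and 0.45% of all genes had those patterns there, so that counts near 0 are the background. The opposite pattern was shown by 4 of the 84, AFT1 among them. The YAC and integrated strains differ in medium as well. Of the 84 peaks, 28 overlapped a peak of an HPRT1R library outside the window, and of the 25, 8 overlapped a peak of an HPRT1 library. A peak of the other group came within 200 bp of the window at 22 of the 84 genes and 10 of the 25.

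Among the genes marked with HPRT1 alone, 14 had a peak above the native median, and the strongest of these were edges of peaks present in both groups. STE18, on chromosome X (start 586068), encodes the gamma subunit of the G protein of the pheromone pathway. Its peaks began at 586548 and 586545, past the end of the gene at 586400, with percentiles of 91.6 and 87.2. The HPRT1R peaks at the same place began 22 and 30 bp beyond the window. AFT1 (chromosome VII), a transcription factor of iron uptake, had percentiles of 79.3 and 75.3, and the HPRT1R peaks stopped 82 and 13 bp short of its window.

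DHH1 (chromosome IV), an RNA helicase of mRNA decay, lies head to head with the pheromone pathway kinase gene STE7 and was marked by the same peak. Its percentiles were 72.3 and 73.1, and the HPRT1R peaks ended 30 and 7 bp away. STE7 itself was marked in all 4 libraries, at 72.3 and 73.1 with HPRT1 and 78.9 and 72.7 with HPRT1R. HPRT1R peaks also ended close to the windows of CMR1, YDL186W, ECM12, MUM3, PRM4, which is regulated by pheromone, and PXP1, a peroxisomal protein, at 3 to 51 bp in each library. YLR358C and REG1, a regulatory subunit of a phosphatase of glucose repression, also had peaks that overlapped HPRT1R peaks, which for REG1 ended 252 and 234 bp from the window.

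At 4 of the 15 genes the HPRT1 peak overlapped no HPRT1R peak. NUP159 (chromosome IX), a protein of the nuclear pore, had peaks of percentile 70.5 and 61.9 at 148748 to 148948, and the nearest HPRT1R peaks were 540 and 711 bp from its window. SHO1 (chromosome V), a membrane protein of osmosensing, had 47.5 and 59.9, with the nearest HPRT1R peaks 942 bp away in both libraries. IFM1 (chromosome XV), the mitochondrial translation initiation factor, had 52.7 and 50.5, and TVP23 (chromosome IV), a Golgi membrane protein, 41.7 and 52.6. Both IFM1 and SHO1 were marked in both HPRT1R YAC libraries, and NUP159 and TVP23 in 1 of them.

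**Figure D5:**
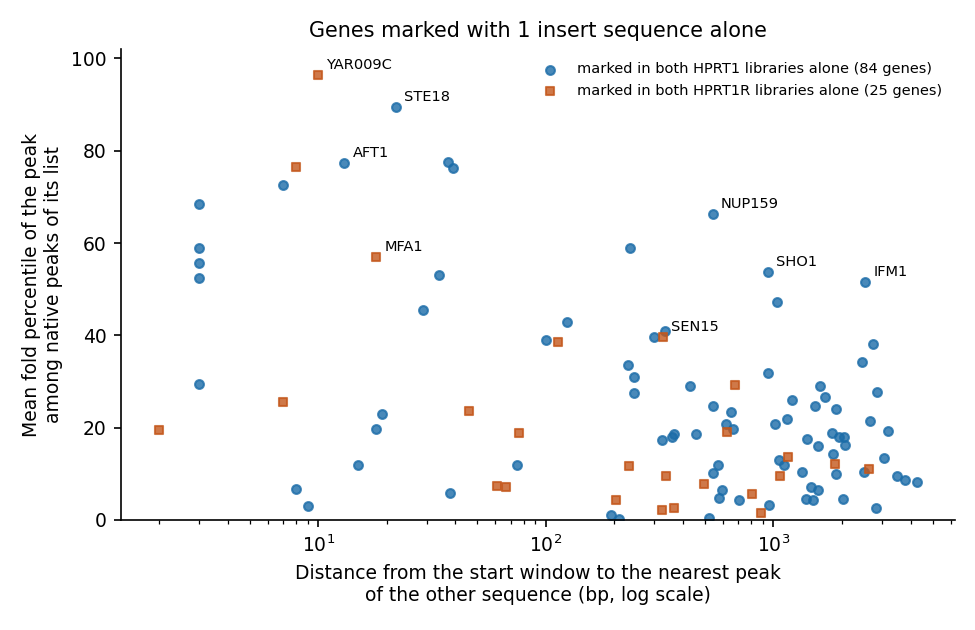
Genes marked in both libraries of one sequence and neither library of the other: mean fold percentile of the peak in the window against the distance (bp, log scale) from the window to the nearest peak of the other sequence. Circles are the 84 genes of HPRT1 and squares the 25 of HPRT1R. NUP159, SHO1 and IFM1 lie over 500 bp from such a peak, while STE18, AFT1 and MFA1 lie within 22 bp.

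Among the 25 genes marked with HPRT1R alone, 3 had a peak above the native median. YAR009C (chromosome I), a reading frame of a Ty1 transposon, had percentiles of 98.4 and 94.2, but Ty1 is repeated in the genome and its peaks are uncertain. These peaks also overlapped HPRT1 peaks, which came within 39 and 10 bp of the window. YDR124W (chromosome IV) had 68.7 and 84.3, with HPRT1 peaks 10 and 8 bp from its window. MFA1 (chromosome IV, start 1385176), one of the genes for the mating pheromone a-factor, had 60.9 and 53.0. Its peaks began past the end of the gene, at 1385568 and 1385543, and the HPRT1 peaks came within 18 and 85 bp of the window.

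The other genes were marked by weaker or uneven peaks. MET2, an enzyme of methionine synthesis, had percentiles of 71.3 and 5.82, and DUR3, a urea transporter, had 18.045 and 32.9. Both overlapped HPRT1 peaks, as did YGL118C and CWP1, a cell wall protein on chromosome XI. ALD3, an aldehyde dehydrogenase, overlapped a peak of 1 HPRT1 library and has a near-identical neighbour, which makes its peak uncertain.

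SEN15 (chromosome XIII), a subunit of the tRNA splicing endonuclease, had the strongest peak of this direction that overlapped no HPRT1 peak, at 34.4 and 45.0. It was marked in all 4 YAC libraries. CTK2, a cyclin-like subunit of a kinase of RNA polymerase II, had 32.3 and 26.2, with HPRT1 peaks 675 and 683 bp away. MRX3, NGL3, YPR195C, RFA3, a subunit of the single-stranded DNA binding factor of replication, and CUS2 completed the 15 strongest, with mean percentiles from 19.1 to 11.1.

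The gene groups were marked to nearly the same extent in both. The writers of the mark were all marked: the 8 COMPASS genes carried peaks in all 4 libraries, against 73.1% of all genes. SET1, the methyltransferase, had percentiles of 56.7 and 70.6 with HPRT1 and 78.8 and 86.1 with HPRT1R. SWD3, another subunit, had 98.2 and 95.2 against 92.0 and 94.5. SET1 thus stood higher in both HPRT1R lists and SWD3 in both HPRT1 lists. At SWD2, SPP1 and SHG1 the groups overlapped, and the share of all genes without overlap was not counted.

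The list of 137 genes for cytosolic ribosomal proteins had 135 members marked in all 4 libraries. RPL18B, which has a near-identical copy and is therefore uncertain, was the only one marked with HPRT1 alone, by weak peaks of percentile 7.99 and 3.54, and HPRT1R peaks lay 68 and 38 bp from its window. Purine synthesis, the pathway closest to the function of human HPRT1, had 14 of 15 genes marked in all 4, and IMD2 in none. ADE1 had percentiles of 91.9 and 93.0 with HPRT1 and 25.04 and 98.2 with HPRT1R, so that the replicates of HPRT1R differed more than the groups. ADE57, which stands for ADE5,7, had 88.3 and 86.8 against 96.7 and 92.6.

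Glycolysis had 14 of 17 genes marked in all 4 libraries, with HXK1 and TDH1 in none. PGK1, phosphoglycerate kinase, had percentiles of 82.1 and 81.9 with HPRT1 and 91.4 and 89.8 with HPRT1R. Heat shock chaperones had 14 of 19 marked in all 4, with SSA3, HSP26 and SSE2 in none. Hexose transporters and sensors had 3 of 14, with 10 in none, although near-identical copies among them make these calls uncertain. No gene of these 3 groups was marked with 1 sequence alone, which is near the background of 1.4% and 0.417% of all genes.

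Of 10 histone genes, 5 were marked in all 4 libraries and none with 1 sequence alone. HTA1, for histone H2A, had percentiles of 74.6 and 81.1 with HPRT1 and 40.7 and 17.6 with HPRT1R. How many of all genes keep the groups apart in this way was not counted. HTA2, also for H2A, was marked only in HPRT1 replicate 2 (30.1) and HPRT1R replicate 1 (48.5). HTZ1, for the variant H2A.Z, had 71.9 and 74.0 against 80.4 and 82.2. HHO1, the linker histone, had 93.0 and 89.4 against 84.9 and 85.5. The order of the groups differed from gene to gene.

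The mating and pheromone response genes had 21 of 31 marked in all 4 libraries, and MFA1 and STE18, described above, were the ones marked with 1 sequence alone. The silent genes of the other mating type, MF(ALPHA)1, MF(ALPHA)2 and STE3, were marked in none, and neither were AGA2, FUS2 and MFA2. STE12, the transcription factor of the pathway, had percentiles of 98.3 and 99.2 with HPRT1 and 99.1 and 98.9 with HPRT1R, and STE2, the alpha-factor receptor, 65.2 and 80.8 against 70.6 and 77.3. Within 20 kb of a chromosome end, 34 of 253 genes were marked in all 4, against 73.1% of all genes. There, YPR195C was marked with HPRT1R alone, and MIX23 and SEA4 with HPRT1 alone, shares no higher than the 0.417% and 1.4% of all genes.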

How the data were processed

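H3K4me3 peaks of 4 integrated libraries (15338 peaks) were compared, with the 4 YAC libraries beside them. The submitters' processing notes name MACS2 2.1.0, deepTools 3.5.0, Bowtie2 2.2.9, SAMtools 1.9 and bcl2fastq 2.20 with the build sacCer3. Not given in the sources used here are the caller settings, the mapping quality and any IgG control. For each peak the authors deposited start, end and summit offset, a fold over expectation (a ratio), a p-value and q-value as −log10, and a score. Genes came from RefSeq R64, the assembly that sacCer3 names. From these, numbers, widths, spacings, coverages, overlaps and marked genes were computed (python 3.11.15, numpy 2.4.6, pandas 2.3.3, scipy 1.17.1, matplotlib 3.10.9) and tested on simulated data. Expected pileups were solved from fold and p for at least 99.7% of peaks, within 0.001 in −log10 p. Groups were compared with exact permutation tests. Named were, per direction, the 15 genes marked in 1 group alone with the highest mean percentile, the members of gene lists marked in 1 group alone, the 10 strongest insert regions and every unpartnered region above the native median. Other genes and regions were chosen after their values were seen. Members and lists were chosen with earlier results of these data known. Alternatives included −log10 q of at least 5, equal peak numbers, joined peaks, other insert lengths and leaving out each library.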

Additional observations from a re-analysis of the deposited data

Results flagged for a closer look

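Peaks were also called on the mitochondrial genome, which has no histones and which the comparisons leave out. They numbered 19 and 20 in HPRT1 replicates 1 and 2 and 15 and 18 in HPRT1R replicates 1 and 2. These are called peaks in data outside the main measurement, with no control libraries set beside them here.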

How the results depend on the processing

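Of 138 alternatives over the compared values, 99 kept the result, 11 turned the direction and 28 moved the value. A difference between groups was kept if its sign stayed, and a count of genes or regions if it stayed within 1.5 times. An overlap was kept if it stayed within its SD over the pairs. Shares of peaks, which have another unit, were counted as moved. Of the 99, 80 stayed within 1.5 times the value reported and 19 did not. Differences of native peak number, width, spacing and coverage and of the insert percentile kept their direction under every alternative tried, but not always their size. With equal numbers of peaks per list, native peak number fell from 234.5 to 7, width went from −73.5 to −48.8 bp and spacing from −240 to −102.75 bp. Native coverage went from −1.39 to −2.00 points. The insert percentile difference ran from 2.43 to 10.7 with 1 library left out and was 4.24 at −log10 q of at least 5. Values below are HPRT1R minus HPRT1, and the cause of a change was not tested. With equal numbers of peaks per list, insert peak number became −4.5, insert coverage −2.85 points, insert width 36.8 bp and insert spacing 54.0 bp. Over 98 kb insert coverage became 0.612 points. At −log10 q of at least 5 insert spacing became −252.5 bp and coverage −1.41 points. With peaks under 200 bp apart joined, insert width became −41.2 bp, spacing −129.75 bp and number 2.5. Insert number ran from 0.5 to 2.5 with 1 library left out. Leaving out 1 library gave insert widths from −55.5 to 13.5 bp and spacings from −100.5 to 58.5 bp, with the sign turning without HPRT1 replicate 2. The mirrored overlap less the product of coverages, −0.669 points at 100 kb, became 0.337 at −log10 q of at least 5, 0.0431 with equal numbers, −1.197 over 98 kb and 3.92 at a sum 1 kb higher. It ran from −1.84 to 3.92 in steps of 500 bp and up to 6.72 in steps of 100 bp. As a share of HPRT1 peaks, the mirrored overlap was 46.5% by 1 bp and 9.60% by 50% reciprocally, and at the same coordinates 64.6% and 18.2%.

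Genes marked with HPRT1 alone (84) numbered 41 in the YAC libraries, 125 with equal numbers of peaks and 125 to 206 with 1 library left out. Those with HPRT1R alone (25) numbered 16 with equal numbers of peaks, 215 by summits and 46 to 80 with 1 library left out. Native regions with HPRT1 alone (68) numbered 109 with equal numbers and 118 to 168 with 1 library left out. Those with HPRT1R alone (37) numbered 15 and 66 to 113. By reciprocal overlap, counted in peaks of replicate 1 rather than in regions, the numbers were 195 and 311. Leaving out a library asks for agreement of fewer libraries, which by construction raises the counts of genes and regions.

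The replicates share only a number between groups, and over 6002 genes the deviations of same-numbered libraries correlated at 0.036. Under the replicate block every difference kept its value (−73.5 bp for native width, 234.5 for native peaks, −0.861 points for insert coverage), and an exact sign-flip permutation test over 2 pairs, whose smallest p is 0.5, gave 0.5 or, for insert width and spacing, 1. With 2 libraries a group, no test here reaches a p under 0.05.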
